A study of Mus musculus with 2 samples.

Results

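Neutrophils carry antimicrobial proteins in granules that are filled one kind after another while the cell matures in the bone marrow. Azurophil granules are made first, at the promyelocyte stage, and hold myeloperoxidase and serine proteases. Specific granules are made next, at the myelocyte stage, and hold lactoferrin, cathelicidin and lipocalin 2, whereas calprotectin, the complex of S100a8 and S100a9, lies in the cytosol. The granule genes are transcribed in the marrow precursors and are largely silent in the mature cell, while calprotectin is also made by monocytes. The 10 genes described here are the azurophil granule genes Elane, Mpo, Prtn3 and Ctsg, the specific granule genes Ltf, Ngp, Camp and Lcn2, and the calprotectin genes S100a8 and S100a9. They were chosen by name as neutrophil genes that may persist in bone marrow cultures, and they are 10 of 14879 genes with an assembled locus in at least 1 library.

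The RNA came from WT bone marrow that had been kept in M-CSF alone (M) or in M-CSF and then in M-CSF plus RANKL (MR), the condition in which osteoclasts form. The dose was 20 ng/mL for M-CSF and 100 ng/mL for RANKL. For time, the labels state 2 days with M-CSF and 2 further days with RANKL, whereas the culture method gives 3 days with RANKL. Total RNA was measured in 1 library per condition, so that no difference has a replicate check and no p-value was computed. The strain, age and number of mice are not given in the sources used here for these libraries, and no library of uncultured marrow was analysed here. The depth was 3.63 Gb in M and 2.98 Gb in MR of aligned bases, as the coverage and FPKM columns imply.

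Values are transcript levels in TPM, which are scaled to transcript length and to the same total in each library, at the loci that StringTie assembled from the reads, each locus being given to the gene of GENCODE vM21 (GRCm38) with the most exon bases in it. Each of the 10 genes had a locus of its own in both libraries, shared with no other protein-coding gene. A gene was counted as higher or lower in MR when the difference in log2(TPM + 1) was over 1 in size. None of the 10 genes passed this threshold, against 34.1% of the 13386 genes tested. Tested genes are those whose locus is not shared and whose TPM was 1 or more in M, in MR or in both. These counts describe the pair of libraries, not the conditions.

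The 10 genes lie on 6 autosomes. On chromosome 10, Prtn3 (chr10:79874476-79883174) and Elane (chr10:79886247-79888215) are neighbours on the plus strand with 3072 bases between them. On chromosome 3, S100a8 (chr3:90668978-90670035, plus strand) and S100a9 (chr3:90692632-90695721, minus strand) are 22.6 kb apart. On chromosome 9, Camp (chr9:109847379-109849617, minus strand), Ngp (chr9:110419747-110423012, plus strand) and Ltf (chr9:111019271-111042767, plus strand) lie in this order, with 570129 bases between Camp and Ngp. Mpo is on the plus strand of chromosome 11 (chr11:87793581-87804413), Ctsg on the minus strand of chromosome 14 (chr14:56099881-56102574) and Lcn2 on the minus strand of chromosome 2 (chr2:32384633-32388252).

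The assembled loci began close to the annotated starts for most of these genes. For 8 of the 10 genes, all but Mpo and Ctsg, the 5′ end of the locus was at most 25 bases from the RefSeq start in either library. The Elane locus began 2 bases inside the start in M and 4 bases inside it in MR, and the Camp locus 5 and 16 bases inside it. For Ctsg the 5′ end was 85 bases inside the start in M and 107 bases in MR. The Mpo locus began 753 bases inside the start in M and 192 bases in MR, and M held a further fragment of 287 bases without a strand upstream of it, with a TPM of 4.477. Over all loci given to the 10 genes, the median share of the gene's exon bases within the locus was 86.2%.

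**Figure D1:**
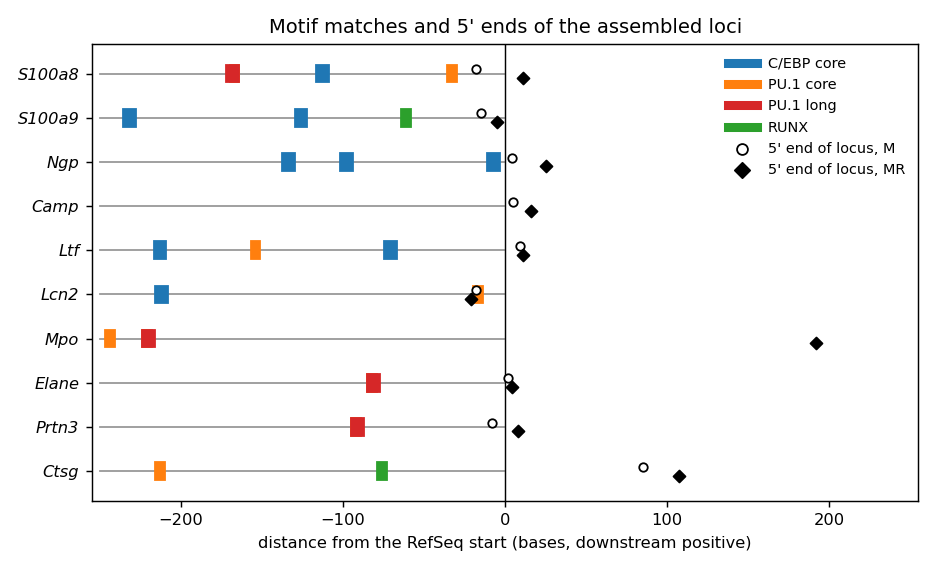
The horizontal axis gives the distance in bases from the RefSeq start of each gene, and each grey line is the 250 bases before it, with coloured boxes where C/EBP, PU.1 and RUNX motif letters were found on either strand. Open circles (M) and black diamonds (MR) mark the 5′ ends of the assembled loci within 250 bases, which lie within 25 bases of the start for 8 genes and farther inside for Ctsg and Mpo, while the M loci of Mpo lie outside the plot.

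The 250 bases before the RefSeq start (GRCm38.p6) were searched on both strands for letters that C/EBP, PU.1 and RUNX factors are known to bind, since these families act at granule genes. The PU.1 letters GAGGAAGT were found in 4 of the 10 windows, those of S100a8, Elane, Mpo and Prtn3, and in 2.44% of all 32851 RefSeq windows of the same length. The shorter PU.1 letters GAGGAA, which the longer ones contain, were found in 7 of 10 windows and in 23.3% of all. The C/EBP letters TTNCNNAA were found in 5 of 10 windows, those of S100a8, S100a9, Ltf, Ngp and Lcn2, and in 36.8% of all. The stricter C/EBP letters TTGCGCAA were found in 0 of 10 and in 0.164% of all, and the RUNX letters TGTGGT in the windows of S100a9 and Ctsg and in 14.0% of all. A match describes the letters alone, and no binding was measured in these samples.

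The windows of 3 pairs of genes are shown, and the choice was made from the values of these same libraries. The counting intervals given further on, which cover counting error only, did not overlap between S100a8 and S100a9 or between Ngp and Camp. Non-overlap was found in 15 of all 45 pairs of the genes described here. The share among pairs of all genes tested was not computed, so this count has no background to be read against. Elane and Prtn3 were chosen because Elane, the only gene with a higher value in MR, has Prtn3 as its neighbour. Whether the letters in a window bear on the ratio of its gene was not tested. S100a8 and S100a9 encode the subunits of calprotectin, Elane and Prtn3 are neighbouring serine protease genes, and Ngp and Camp encode proteins of the cathelicidin family. Each window is printed 5′ to 3′ on the strand of the gene and ends at the base before the RefSeq start. Capitals mark the matches to TTNCNNAA, GAGGAA, GAGGAAGT and TGTGGT on either strand. In Elane and Prtn3 the capitals are the GAGGAAGT match, whose first base lies 85 and 95 bases before the start. In S100a8 the same letters lie on the opposite strand, 172 to 165 bases before the start. Ngp holds 3 TTNCNNAA matches and the Camp window holds no match to any of these letters.
S100a8 (chr3:90668821-90669070, plus strand): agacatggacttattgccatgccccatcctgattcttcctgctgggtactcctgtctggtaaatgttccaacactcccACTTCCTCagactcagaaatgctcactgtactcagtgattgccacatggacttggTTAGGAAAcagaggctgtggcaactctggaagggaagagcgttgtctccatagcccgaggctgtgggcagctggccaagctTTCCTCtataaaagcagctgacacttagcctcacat
S100a9 (chr3:90695722-90695971, minus strand): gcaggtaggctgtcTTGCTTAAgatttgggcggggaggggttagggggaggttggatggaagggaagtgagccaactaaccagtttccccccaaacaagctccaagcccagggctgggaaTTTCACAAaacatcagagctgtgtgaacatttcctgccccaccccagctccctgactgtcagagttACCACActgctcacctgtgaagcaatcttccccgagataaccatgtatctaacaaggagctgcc
Prtn3 (chr10:79879417-79879666, plus strand): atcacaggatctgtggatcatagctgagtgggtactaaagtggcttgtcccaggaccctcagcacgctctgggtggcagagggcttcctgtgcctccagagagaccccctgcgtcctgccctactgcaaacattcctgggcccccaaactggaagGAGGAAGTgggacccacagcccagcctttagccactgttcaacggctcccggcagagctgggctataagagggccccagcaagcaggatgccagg
Elane (chr10:79886062-79886311, plus strand): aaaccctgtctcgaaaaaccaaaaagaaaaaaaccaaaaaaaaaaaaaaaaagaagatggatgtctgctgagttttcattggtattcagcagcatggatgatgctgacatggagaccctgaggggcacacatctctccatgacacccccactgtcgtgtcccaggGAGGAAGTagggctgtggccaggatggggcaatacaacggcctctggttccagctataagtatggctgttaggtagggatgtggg
Ngp (chr9:110419558-110419807, plus strand): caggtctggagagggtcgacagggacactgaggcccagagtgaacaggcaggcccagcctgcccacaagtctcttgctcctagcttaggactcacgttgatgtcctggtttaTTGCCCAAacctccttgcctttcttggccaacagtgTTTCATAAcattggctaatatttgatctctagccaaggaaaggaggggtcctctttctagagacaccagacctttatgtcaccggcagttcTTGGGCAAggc
Camp (chr9:109849457-109849706, minus strand): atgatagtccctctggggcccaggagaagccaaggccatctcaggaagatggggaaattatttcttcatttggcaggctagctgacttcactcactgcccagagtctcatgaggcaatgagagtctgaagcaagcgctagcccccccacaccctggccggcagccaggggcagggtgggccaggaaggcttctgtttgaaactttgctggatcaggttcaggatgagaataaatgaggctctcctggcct

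All 10 genes were detected in both cultures, and 9 of the 10 had a lower TPM in MR than in M, against 40.5% of the 13386 genes tested that were lower by any amount. Their TPM ranged from 12.52 to 494.7 in M and from 8.25 to 359.9 in MR. Summed over the 10 genes, TPM was 1473 in M and 1023 in MR, which is 0.147% and 0.102% of each library's TPM at assembled loci. The ratio of these sums was 0.695. TPM in bulk RNA is a share of a fixed total. Fewer neutrophil-lineage cells, less granule RNA per cell and more RNA of other genes therefore cannot be told apart. The median difference in log2(TPM + 1) of the 10 genes was -0.57, from -0.84 for Camp to 0.26 for Elane, while the median over all 13386 genes was 0.21. Of the 10 genes, 9 lay below that median.

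**Figure D2:**
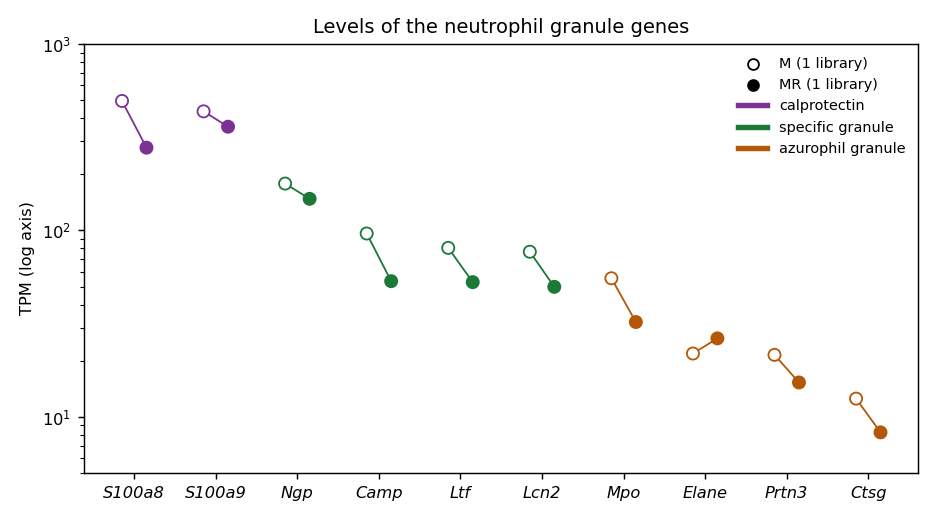
The vertical axis gives TPM on a log scale for each gene in M (open circles) and MR (filled circles), 1 library each and therefore without error bars, with calprotectin in purple, specific granule genes in green and azurophil granule genes in orange. The MR point is below the M point for 9 genes and above it for Elane, at 26.35 against 21.85, and the levels of the 3 classes do not overlap in either library.

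The order of the levels was almost the same in both cultures, with calprotectin above the specific granule genes and these above the azurophil granule genes. From the highest to the lowest, Ngp, Camp, Ltf, Lcn2, Mpo, Elane, Prtn3 and Ctsg followed each other in M and in MR alike. The only change of order was at the top, where S100a8 led in M and S100a9 in MR. Spearman's rho between the levels in M and MR was 0.988 over the 10 genes, which share their libraries. Of the sum over the 10 genes, calprotectin held 63.1% in M and 62.3% in MR, the specific granule genes 29.3% and 29.7%, and the azurophil granule genes 7.55% and 8.02%. The sum of each class was lower in MR, by a ratio of 0.686 for calprotectin, 0.703 for the specific granule genes and 0.738 for the azurophil granule genes. The shares of the classes therefore differed by less than 1 percentage point between the libraries.

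S100a8 and S100a9, which form the calprotectin heterodimer that binds calcium, zinc and manganese, were the most abundant of the 10 genes. S100a8 was measured at 494.7 TPM in M and 277.8 in MR, which gives a ratio of 0.561. Read pairs were estimated from FPKM, aligned bases and the length of the shortest CCDS transcript, at 300 bases per pair, and gave about 1346 pairs in M and 597 in MR for S100a8. The 95% counting interval of its ratio was 0.510 to 0.619 (Wilson). This interval, like those that follow, covers counting error only and says nothing of how far repeat cultures would differ.

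S100a9 was measured at 435.2 TPM in M and 359.9 in MR, which gives a ratio of 0.827 with a counting interval of 0.757 to 0.903. The intervals of the 2 subunits did not overlap, and TPM of S100a8 was 1.14 times that of S100a9 in M and 0.772 times in MR. The coverage listed for S100a9 was 73.3% of the value that its FPKM corresponds to in M and 89.2% in MR, while for S100a8 these values were the same within rounding. With coverage per aligned Gb in place of TPM, the log2 difference of S100a9 was -0.05 instead of -0.27. The level of S100a9 in both libraries was above that of at least 96.9% of the genes tested.

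The specific granule genes had TPM from 76.82 to 178.3 in M and from 49.8 to 147.7 in MR, and all 4 were lower in MR. Ngp, which encodes neutrophilic granule protein, had 178.3 in M and 147.7 in MR, which gives a ratio of 0.828 (0.758 to 0.906). Camp, which encodes the antimicrobial peptide precursor cathelicidin, had 96.23 in M and 53.4 in MR, which gives a ratio of 0.555 (0.466 to 0.663). This was the lowest ratio of the 10 genes, and its interval did not overlap that of Ngp. The level of Ngp was 1.85 times that of Camp in M and 2.77 times in MR.

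Ltf encodes lactoferrin, the iron-binding protein of specific granules. Its TPM was 80.56 in M and 52.76 in MR, which gives a ratio of 0.655 (0.596 to 0.721). Lcn2 encodes lipocalin 2, which binds bacterial siderophores and is also made by macrophages under inflammatory stimuli. It had 76.82 in M and 49.8 in MR, which gives a ratio of 0.648 (0.546 to 0.766). The ratios of these 2 iron-related genes differed by less than their counting error.

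The azurophil granule genes were the least abundant, with TPM from 12.52 to 55.35 in M and from 8.25 to 32.24 in MR. Mpo, which encodes the myeloperoxidase that makes hypochlorous acid, had 55.35 in M and 32.24 in MR, which gives a ratio of 0.582 (0.513 to 0.662). The value in M includes the fragment without a strand, and with the largest locus alone, 50.87 in M, the ratio was 0.634. The remaining 3 genes encode serine proteases. Prtn3, proteinase 3, had 21.49 in M and 15.28 in MR, which gives a ratio of 0.711 (0.530 to 0.953), from about 123 and 69 read pairs.

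Ctsg, cathepsin G, had 12.52 in M and 8.25 in MR, which gives a ratio of 0.659 (0.451 to 0.995). It rests on the fewest reads of the 10 genes, about 70 pairs in M and 37 in MR, and its interval reaches almost to 1. Elane, neutrophil elastase, was the only gene with a higher value in MR, at 21.85 in M and 26.35 in MR. Its ratio of 1.21 had a counting interval of 0.941 to 1.57, which includes 1, from about 120 and 115 read pairs. At this depth no difference in Elane was detectable.

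Within the azurophil class, only the intervals of Elane and Mpo, the genes with the highest and the lowest ratio, did not overlap. The interval of Elane lay above those of Mpo, Ltf, Ngp, Camp, Lcn2, S100a8 and S100a9 and overlapped those of Prtn3 and Ctsg. TPM of Mpo was 2.53 times that of Elane in M and 1.22 times in MR. Prtn3 and Elane, the neighbours on chromosome 10, had nearly equal levels in M, and Elane had the higher level in MR.

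**Figure D3:**
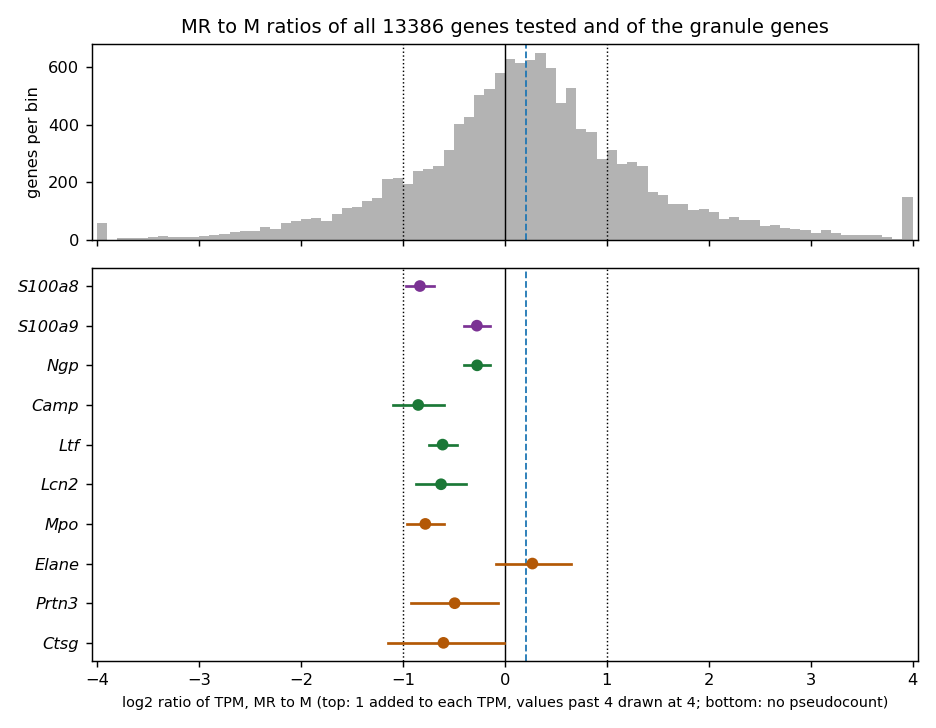
The upper panel is a histogram of the difference in log2(TPM + 1), MR minus M, of all 13386 genes tested, with values past 4 in either direction drawn at 4, and the lower panel gives the log2 ratio of TPM of each of the 10 genes as a point with its 95% counting interval. Dotted lines mark -1 and 1 and the blue dashed line the median of all genes, 0.21, and the points of 9 genes lie between -1 and 0 while the interval of Elane spans 0.

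The intervals of 9 genes lay below a ratio of 1, as did those of 28.9% of the 11591 tested genes with a CCDS transcript, whose read depth was not matched to that of the 10 genes. The lowest ratio of the 10 genes was that of Camp, 0.555. Ranked by the difference in log2(TPM + 1), 15.5% of the genes tested lay below Camp, 15.7% below S100a8 and 52.7% below Elane. A log2 difference below -1 was found in 13.0% of all genes and one above 1 in 21.1%, and in 0 and 0 of the 10 granule genes. When the libraries were scaled by the median of ratios, S100a8 and Camp passed -1, at -1.02 and -1.03, so that the count of 0 rests on the scaling. The direction of each of the 10 genes was the same under every alternative run.

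The granule genes were set beside 10 markers of neutrophil surface, chemotaxis and maturation. Among these markers, Mmp8 and Cd177 also belong to the further neutrophil genes below. Bulk levels of the markers do not show which cells expressed the granule genes. A locus was assembled in both libraries for 9 of the markers, and Mrgpra2b had none. Ly6g, the surface antigen that defines mouse neutrophils, was measured at 3.07 TPM in M and 2.59 in MR, and Cxcr2, the chemokine receptor for neutrophil recruitment, had 1.75 and 1.06. Retnlg had 13.82 in M and 10.36 in MR and Cd177 had 7.203 and 5.362. These 4 markers were lower in MR by log2 differences of -0.42 to -0.18, and they were grouped after their values were seen.

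The other 5 neutrophil markers with a value were all lower in MR by over 1. They make up 55.6% of the 9 with a value, against 13.0% of all genes tested. Csf3r, the G-CSF receptor, was measured at 117.4 TPM in M and 15.34 in MR, and Mmp8, neutrophil collagenase, had 51.76 and 13.11. Fpr1 and Padi4 were lower by log2 differences of -1.88 and -1.16. Csf3r and Fpr1 are also expressed by monocytes. The 9 markers had a median of -1.16 and summed to 244.9 in M and 62.66 in MR, and no marker was at 0.

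Markers of granulocyte progenitors were also present at low level. Ms4a3, of granulocyte and monocyte progenitors, was measured at 5.13 TPM in M and 2.94 in MR, and Fcnb had 3.44 and 9.28. Kit, Cd34 and Flt3, of early progenitors, had 2.56 to 5.19 in M and 2.57 to 5.53 in MR. Of the 9 progenitor markers, Fcnb was higher in MR by over 1 (11.1%, against 21.1% of all genes tested). None was lower by over 1, against 13.0% of all genes tested, and the median was 0.27. Cd63, a lysosomal and azurophil membrane protein that macrophages and osteoclasts also express, held most of the sum, with 881.7 in M and 1297 in MR.

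Markers of monocytes and macrophages, and in MR those of osteoclasts, summed to higher levels than the granule genes. The 8 monocyte and macrophage markers had TPM from 55.13 to 16030 in M and from 16.77 to 4535 in MR, and Adgre1, Ly6c2, Ccr2 and Lyz2 were lower in MR by over 1, with a median over the 8 of -1.33. The Lyz2 and Itgam loci are shared with neighbouring genes, and Lyz2 and Ly6c2 have close paralogs. The 8 osteoclast markers summed to 120.6 in M and 24840 in MR, and each was higher in MR by over 5 on the log2 scale. Among all genes tested, 21.1% were higher by over 1. The fixed eosinophil list had 5 of 7 genes with a value, the lymphoid list 4 of 5, the basophil and mast cell list 2 of 5 and the erythroid list 2 of 3. Their sums were at most 30.15 in M and 28.79 in MR, with Prg2 of eosinophils highest at 16.14 and 16.03, and Cd3e, Siglecf and Fcer1a had no locus in either library. Of the monocyte and macrophage markers, 7 of 8 had a lower value in MR, as 9 of the 10 granule genes did. Among all genes tested, 40.5% were lower by any amount. The part of monocytes and macrophages in the values of S100a8, S100a9 and Lcn2 was not tested.

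A list of 55 further genes of the neutrophil system was compared in the same way, of which 45 passed the filter. Of these 45 genes, 18 were lower in MR by over 1 (40.0%), 9 were higher and 18 did not pass, with a median of -0.64. When only genes that reached 10 TPM were kept, the median was -1.12. Among all genes 13.0% were lower and 21.1% higher by over 1. Of the 10 genes without a value, 6 had no locus in either library (Bpifa2, Ggt1, Stfa1, Stfa2, BC100530 and Klf5), Stfa2l1 and Lrp2 were under the filter, Chil3 fell within a locus given to its neighbour in M, and S100a12 is not in the annotation. The list holds genes that macrophages and osteoclasts express as well, among them Lyz2, Cybb, Cyba, Mmp9, Cd36 and Lrp1.

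**Figure D4:**
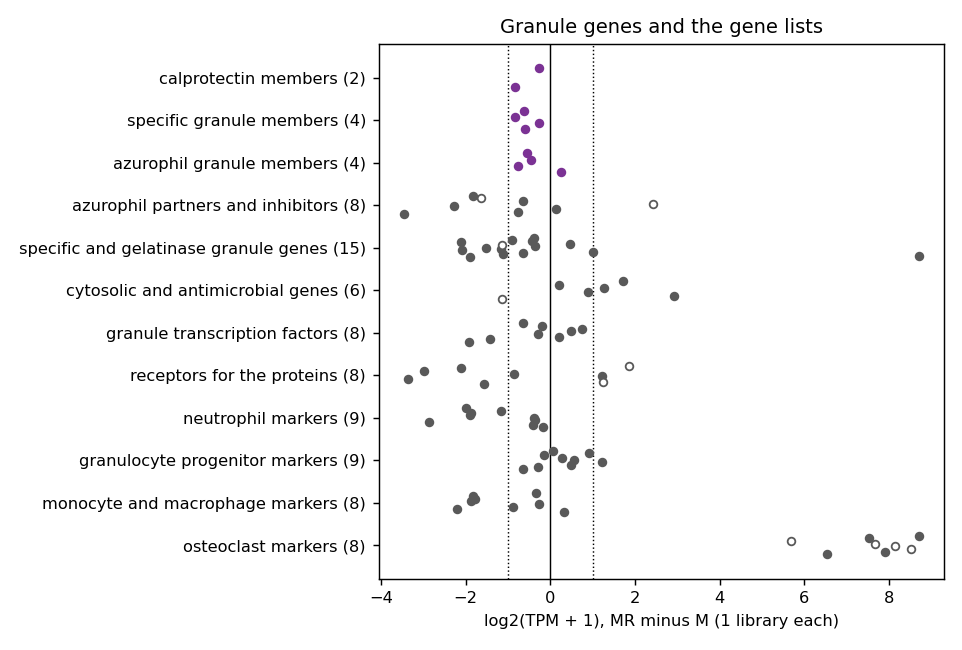
The horizontal axis gives the difference in log2(TPM + 1), MR minus M, for each gene that passed the filter in each list, with the number of such genes in parentheses, and open points mark genes with a locus in only 1 library. The 10 granule genes (purple) lie between -0.84 and 0.26, within the dotted lines at -1 and 1, while the other lists spread beyond these lines and the osteoclast markers lie above 5.

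The partners of the azurophil proteases were spread widely. Ctsc, cathepsin C, which activates neutrophil serine proteases by removing a dipeptide, was measured at 1356 TPM in M and 123.4 in MR, a log2 difference of -3.45. Slpi, an inhibitor of elastase and cathepsin G, had 63.65 in M and 12.39 in MR. Serpinb1a, an intracellular inhibitor of the same proteases, had 4.35 and 4.84. Srgn, the serglycin proteoglycan that packs the proteases into granules, had 113.3 and 66.53, a difference of -0.76, beside -0.47 for Prtn3, -0.55 for Ctsg and 0.26 for Elane. Prss57, a further azurophil serine protease, had 2.09 TPM in M and no locus in MR, and Bpi had no locus in M and 4.396 in MR.

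Genes of specific and gelatinase granules had values for 15 of 18 members. Of these, 7 were lower by over 1 (46.7%) and 2 higher (13.3%), against 13.0% and 21.1% of all genes tested. Mmp8, Hp, Cybb, Cyba, Olfm4, Arg1 and Adam8 were the lower genes. Among them, Olfm4 and Arg1 had at most 4.0 TPM in either library. Cybb and Cyba encode the flavocytochrome of the phagocyte NADPH oxidase, and Cybb was measured at 575 TPM in M and 134.3 in MR. Mmp9, gelatinase B, which is also in the osteoclast list, had 11.39 in M and 5159 in MR. Pglyrp1, Cd177, Mmp25, Itgb2l and Cd24a, at TPM of 4.22 to 15.81 in M, had log2 differences of -0.91 to -0.37 and did not pass. Ltb4r1, a leukotriene B4 receptor, was the other higher gene, with 1.87 in M and 4.81 in MR. Wfdc21 had 14.28 in M and 20.03 in MR.

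The other S100 genes of the list had higher values in MR, unlike S100a8 and S100a9. S100a4, whose locus is shared with a neighbouring gene, was measured at 369.1 TPM in M and 2782 in MR. S100a10 had 382.4 and 928.9, a log2 difference of 1.28, and S100a6 had 385.8 and 712.6, a difference of 0.88. S100a11 had 666.7 and 772.5, a difference of 0.21 that rounds to the median of all genes. Anxa1, a partner of S100 proteins and an anti-inflammatory protein of neutrophils and macrophages, had 322.1 in M and 1067 in MR.

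Transcription factors known to act on granule genes were measured at the same loci. Cebpa, needed for the granulocyte lineage, was measured at 160.2 TPM in M and 41.93 in MR, and Cebpb had 179.3 and 65.79. Cebpe, needed for specific granules, had 5.32 in M and 4.16 in MR, and Gfi1 had 1.52 and 2.55. Spi1, which encodes PU.1, had 571.2 in M and 956.4 in MR, a log2 difference of 0.74. Of 8 factors with a value, only Cebpa and Cebpb passed, both lower (25.0%, against 13.0% of all genes tested). Cebpd, Runx1 and Myb had differences of 0.20, -0.19 and -0.63.

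Of the receptors for the secreted proteins, 4 were lower and 3 higher in MR by over 1 among 8 with a value. The shares over all genes tested were 13.0% lower and 21.1% higher. The 3 higher genes, Ager, Slc22a17 and Itln1, had low levels, at most 3.50 TPM in either library. Itln1 had no locus in M and 2.64 TPM in MR. Tlr4, a receptor for calprotectin, was measured at 40.03 TPM in M and 12.76 in MR, and Ager, a further receptor for S100 proteins, had no locus in M and 1.37 in MR. Cd36, which also takes up the calprotectin and fatty acid complex, had 513.3 in M and 48.96 in MR. Fpr2, the receptor for cathelicidin, had 34.46 and 3.51, and P2rx7, also linked to cathelicidin, had 67.21 and 14.7. Slc22a17, a receptor for lipocalin 2, had 0.916 in M and 3.50 in MR, and Lrp1, which binds lactoferrin, had 250.4 and 138.5, a log2 difference of -0.85 that did not pass.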

How the data were processed

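Total RNA of 1 M and 1 MR culture was sequenced as paired reads. The authors used Trim Galore for adaptors and HISAT2 for alignment to mm10, and ran StringTie with the GENCODE vM27 annotation, and versions are not given in the sources used here. The deposited tables list per entry a coverage (read depth per base, a signal not scaled for depth), an FPKM and a TPM. The authors scaled TPM so that assembled loci sum to 1000000, and the entries with gene names, on GRCm39 positions, were not used for values. Each locus went to the GENCODE vM21 gene that shares most exon bases with it (minimum 50) on its strand, or on either strand where the locus has none, and TPM was summed per gene. In all, 15665 loci with 95.4% of TPM in M and 16523 with 96.9% in MR were given to genes. A locus counted as shared where a second protein-coding gene had 50% or more of its exon bases in it. Shared loci enter the lists but not the counts over all genes. A gene with no locus was set to 0, and 5% of loci had a TPM under 0.148 in M and 0.239 in MR.

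The difference in log2(TPM + 1) was computed for genes that reached 1 TPM in M or MR, with a threshold of 1. It understates the change of low genes. Ratios without a pseudocount carry 95% Wilson intervals from estimated read pairs. No test was run, because each condition has 1 library. The assignment was checked on simulated data with 1 nearly whole, stranded locus per gene. Split, unstranded, merged or missing loci were not simulated. The 10 genes and the lists were chosen with earlier results of these data known, and every listed gene with a value could be named. The single values of 2 marker genes, which are counted in their lists, are not reported here. Promoter windows are those of RefSeq (GRCm38.p6), and all 10 genes matched by symbol. Scripts ran on Python 3.11.15 (pandas 2.3.3, numpy 2.4.6, matplotlib 3.10.9, scipy 1.17.1). Alternatives were a pseudocount of 0.1, FPKM or coverage per aligned Gb in place of TPM, 2 other scalings, 1 exon base, the largest locus alone, no shared loci, other filters and a threshold of 2.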

Additional observations from a re-analysis of the deposited data

How the results depend on the processing

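Each gene kept its direction under the 8 alternatives run for it, and 74 of these 80 values stayed within the counting interval. For this count the interval was centred on the difference in log2(TPM + 1), not on the ratio without a pseudocount. Centred in this way, the interval of Ctsg, -1.10 to 0.05, includes 0. Median-of-ratios scaling, over 11875 genes, lowers the log2 ratio of TPM by 0.19, and somewhat less after 1 is added. It moved S100a8 to -1.02, S100a9 to -0.47, Mpo to -0.95, Ltf to -0.79 and Ngp to -0.46, and 2 of the 10 genes, S100a8 and Camp, then passed -1 against 0 before. Coverage per aligned Gb moved S100a9 to -0.0485. The median of the 10 genes was between -0.75 and -0.57. A TPM of at least 10 and a threshold of 2 admit fewer genes by construction. They gave 1589 and 933 higher and 973 and 501 lower among all genes, against 2819 and 1745. Among the further neutrophil genes they left 4 and 3 higher against 9, and the threshold of 2 left 7 lower against 18. With 1 library per condition no replicate could be left out. No paired analysis was possible because each condition has 1 library.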

Other observations

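The entries that carry the names of the 10 genes lie 92.7 to 237 kb from the genes' GRCm38 starts, since their positions refer to GRCm39. By name, 8 of the 10 genes are listed at 0 TPM in M and 7 in MR, among them S100a8, Elane, Mpo and Camp in both libraries, although a locus was assembled for each at its GRCm38 position. The entry named Prtn3 is listed at 9.94 in M and 14.5 in MR, whereas the locus at the gene had 21.49 and 15.28, so that the direction by name is opposite to that at the gene.

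Entries of other genes lie over 4 of the 10 genes on the same strand. Gpx4 is listed over Elane and Prtn3 at 0.929 TPM in M and 0.558 in MR, Setd2 over Ngp at 2.06 and 2.34, and Lrrfip2 over Ltf at 0.408 and 0.0985. Whether reads of the granule genes were counted in these entries was not tested.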
